A study of Nematostella vectensis with 4 samples.

Results

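The gastrula of the sea anemone *Nematostella vectensis* was searched for cells that held transcripts of *NvashA* but none of *NvLWamide* or *Nvelav*. A cell barcode was taken when it had at least 500 detected genes, at least 1 *NvashA* count amounting to at least 200 CPM (counts scaled to 1000000 counts of the cell), 0 counts of *NvLWamide*, *Nvelav* and *Nvncol1*, and *Nvncol3* below 2000 CPM. This rule found 140 cells among 18779 barcodes, of which 16089 had at least 500 genes. They are called marker-negative *NvashA* cells here, because by construction they show 0 counts of both other genes given for neurons in the study's cluster marker list. *Nvgfi-like* and *Nvpea3-like*, which the study also presents as neuronal markers, did not enter the rule. The cells were chosen by their counts of these 5 genes, so those levels are given as a description and carry no test.

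*NvashA* is an achaete-scute type transcription factor of the basic helix-loop-helix family, a class of proteins known for driving cells towards a neuronal fate. *NvLWamide* encodes the precursor of a neuropeptide, and *Nvelav* encodes an RNA-binding protein found in differentiating and mature neurons of cnidarians. In neurogenesis such transcription factors typically act before neuropeptides and other products of the finished neuron are made. *Nvncol1* and *Nvncol3* encode minicollagens of the stinging capsule of cnidocytes, which in *Nematostella* arise from the same kind of neural progenitor as neurons. A unique molecular identifier (UMI) tags each captured transcript, so that PCR copies are counted once, but a droplet library captures only part of a cell's transcripts. A count of 0 in a cell is therefore not the same as an absent transcript.

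All cells came from whole embryos at 24 h post fertilization, and the labels name no treatment and no second condition. The embryos were dissociated as 1 pool, from which 4 technical replicate libraries were made with the 3′ method of 10x Genomics on 1 chip. P-values therefore measure the spread between libraries of 1 pool, which is technical and includes which cells each library caught. The libraries held 2686 to 8523 barcodes and 22980631 to 56880930 UMIs, and replicate 4 had the most barcodes and the lowest median depth. The gene counts of any pair of libraries differed, with a chi-square of 6.63 to 54.1 per degree of freedom, so no library was a copy of another. Each library was counted as 1 replicate, although this does not make it a separate biological sample. Across all libraries 38 barcode sequences occurred in more than 1 library, and 0 of the 140 cells carried such a barcode. Gene IDs are given as deposited where the study lists no name for them.

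Marker-negative *NvashA* cells were rare in every library. Replicate 1 held 25 of them, replicate 2 held 15, replicate 3 held 18 and replicate 4 held 82. These were 0.679% of the cells in replicate 1 (95% exact binomial interval 0.440 to 1.00), 0.516% in replicate 2 (0.289 to 0.850), 0.794% in replicate 3 (0.471 to 1.25) and 1.13% in replicate 4 (0.903 to 1.41). Replicate 4 was the highest, and its interval overlapped those of replicates 1 and 3. The mean was 0.781% ± 0.261 (SD, n = 4 libraries). The intervals cover counting error alone.

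*NvashA* was detected in 950 cells with at least 500 genes, and the rule divided them as follows. Of these, 366 held *NvLWamide* and met the same limits on *NvashA*, *Nvncol1* and *Nvncol3*, whatever their *Nvelav* (250 of them held it), and they are the first comparison class below. Another 45 held *Nvelav* without *NvLWamide*, and 112 were set aside by *Nvncol1* or *Nvncol3*. The other 287 fell under 200 CPM, and their median depth of 18550 UMIs was far above the 2218 UMIs of the marker-negative cells. The limit of 200 CPM is thus passed by a single count in a shallow cell and not in a deep one. Just inside it lay cells at 212, 212 and 213 CPM, each with 1 *NvashA* UMI, and just outside it lay cells at 199.9, 199 and 198 CPM, with 4, 1 and 2 UMIs. The highest *Nvncol3* level inside its limit was 1929 CPM, and the lowest outside it was 2137. At least 1 *Nvncol3* UMI was held by 52 marker-negative cells (37.1%), beside 36.9% of the cells with *NvLWamide* and 40.9% of the cells without *NvashA*. Summed over the marker-negative cells, *Nvncol3* stood at 141, 28.0, 61.1 and 318 CPM in replicates 1 to 4.

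The *NvashA* evidence in most of these cells was a single transcript. Of the 140 cells, 89 held 1 *NvashA* UMI, 23 held 2 and 28 held 3 or more, up to 16. Their *NvashA* levels ran from 212 to 6660 CPM with a median of 569, and 24 cells lay between 200 and 300 CPM. Among the 366 *NvashA* cells with *NvLWamide*, 89 held 1 UMI, 55 held 2 and 222 held 3 or more, and the median level was 865 CPM. Summed over cells, *NvashA* stood at 671, 533, 526 and 557 CPM (here of all UMIs of the class) in the marker-negative cells of replicates 1 to 4. The same sums for cells with *NvLWamide* were 722, 1113, 776 and 913 CPM. Every library of the marker-negative cells lay below every library of the other class.

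**Figure D1:**
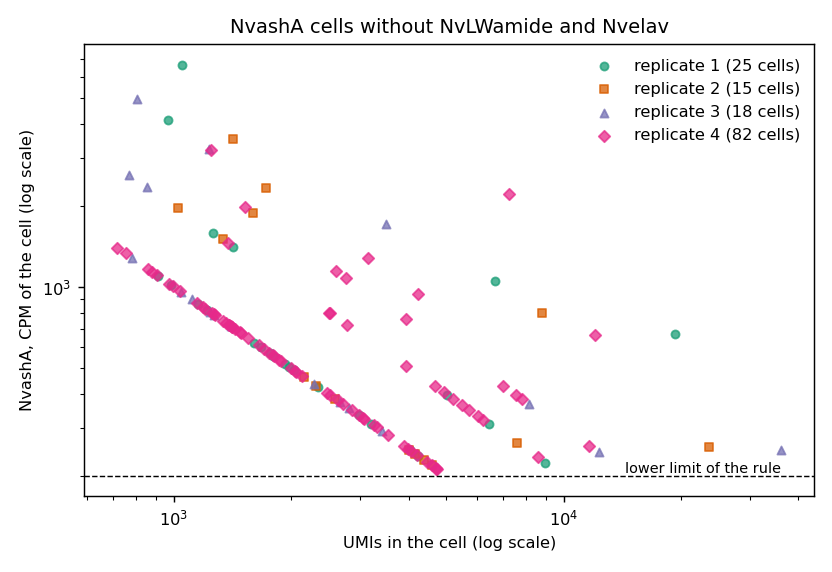
Each point is 1 of the 140 marker-negative *NvashA* cells, placed by its UMIs (x axis, log scale) and its *NvashA* level in CPM (y axis, log scale), with 1 symbol per library. The lowest diagonal line of points is formed by the 89 cells with 1 *NvashA* UMI, and the dashed line marks the limit of 200 CPM.

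Depth moved with the class. The median UMIs per marker-negative cell were 1931, 2597, 1334.5 and 2507.5 in replicates 1 to 4. Cells with *NvLWamide* had medians of 7486.5, 5063, 7932 and 2629 UMIs, and cells without *NvashA* had 6352, 4924, 5091.5 and 2178. The gap was wide in replicates 1 to 3 and small in replicate 4. Because a deeper cell is more likely to show at least 1 *NvLWamide* or *Nvelav* count, cells with *NvLWamide* were thinned to 1000 UMIs each, which left out 19 of them. At that depth 275 of 347 (79.3%, 95% exact binomial interval 74.6 to 83.4) still showed *NvLWamide* and 117 (33.7%, 28.8 to 39.0) still showed *Nvelav*. *NvashA* was kept by 223, and of these 26 (11.7%, 7.76 to 16.6) had lost both *NvLWamide* and *Nvelav*. The limits on genes and *Nvncol3* were not applied again, so whether these cells would meet the whole rule was not tested. The depth of 1000 UMIs is also below the median of 2218 UMIs of the marker-negative cells, so this share does not carry over to them.

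To see which cells the rule had gathered, all 16089 cells were clustered without using any of the study's marker genes, and the cells were then located among the 20 clusters. Only 28 of the 140 (20.0%, 95% exact binomial interval 13.7 to 27.6) lay in cluster 9, the neuron-like cluster. By library this share was 20.0%, 26.7%, 33.3% and 15.9%. Of the cells with *NvLWamide*, 321 of 366 (87.7%, 83.9 to 90.9) lay there, and of the cells without *NvashA* 236 of 15139 (1.56%, 1.37 to 1.77). With 2000 variable genes in place of 4000, 42 of the 140 (30.0%) were in neuron-like clusters. Cluster 9 took its name from genes that also define the classes, so these shares are a description and no test. The marker-negative cells lay in more than 1 cluster, and they are named by their rule and not as a neuron type.

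Cluster 9 was called neuron-like because *NvashA*, *NvLWamide* and *Nvelav* stood 57.1, 97.3 and 25.4 times above all other cells. Cluster 10 was called progenitor-like because *Nvath-like*, *Nvmyc1* and *Nvnanos*, the study's progenitor markers, stood 15.7, 8.89 and 17.6 times above. A name needed at least 5-fold of all 3 markers of a type. None of the 10 leading genes by fold of either cluster is among the study's listed markers, and the sources used here give them no name. The clusters were built here and may differ from those of the study.

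Apart from the neuron-like cluster, the marker-negative cells lay in 15 further clusters. The largest groups were 21 cells in cluster 4, 14 in cluster 13, 12 in the progenitor-like cluster 10, 12 in cluster 3 and 10 in cluster 2. The 14 cells of cluster 13 all came from replicate 4, which also gave 146 of the 165 cells of that cluster. The progenitor-like cluster was uneven in the other direction and held 24.0%, 20.0%, 5.56% and 2.44% of the marker-negative cells of replicates 1 to 4. For the cells with *NvLWamide* that share was 4.05%, 0%, 2.22% and 2.53%, and for cells without *NvashA* it was 4.50%, 5.06%, 4.80% and 2.20%. Replicates 1, 2 and 3 lay above both other classes, and replicate 4 lay above the cells without *NvashA* but below the cells with *NvLWamide*. These shares rest on 6, 3, 1 and 2 marker-negative cells.

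**Figure D2:**
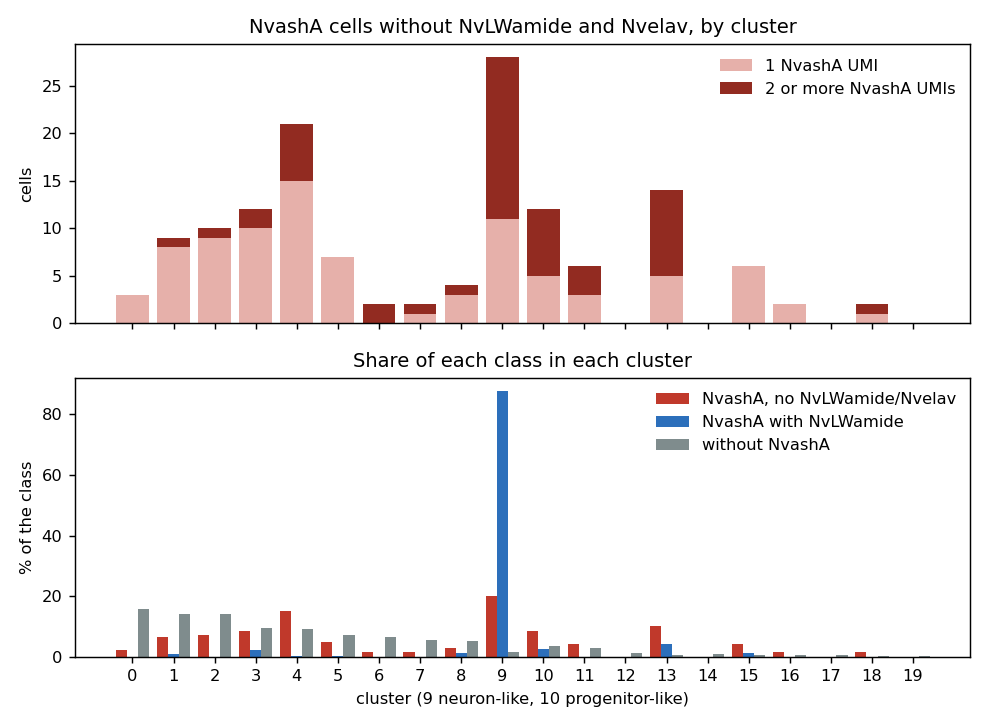
The upper bars count the 140 marker-negative *NvashA* cells in each of the 20 clusters (x axis), split by cells with 1 and with 2 or more *NvashA* UMIs, and the lower bars give the percentage of each cell class in each cluster. Cluster 9 holds 28 of these cells and 87.7% of the cells with *NvLWamide*, while the rest of the marker-negative cells are spread over 15 clusters.

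Within the neuron-like cluster the marker-negative cells had a lower median depth than both other classes. Their median depth there was 1399.5 UMIs, against 3700.0 for the 321 cells with *NvLWamide* in the same cluster and 1781.5 for its 236 cells without *NvashA*. Cells under 1000 UMIs numbered 5 of the 28, 18 of the 321 and 44 of the 236. Of the 28, 11 held 1 *NvashA* UMI and 17 (60.7%, 95% exact binomial interval 40.6 to 78.5) held 2 or more. The median *NvashA* level of the 28 was 1429 CPM, compared with 991 for the cells with *NvLWamide*. Of the 112 outside the cluster, 34 (30.4%, 22.0 to 39.8) held 2 or more, at a median of 503 CPM and a median depth of 2552.5 UMIs. *NvashA* took part in choosing the cells, and a single count gives a higher level in a shallower cell, so these levels are a description.

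The share of cells with any *NvashA* count in each cluster was also taken at 1000 UMIs per cell and set beside that of a cluster taken as a low level. *NvashA* chose the cells and helped to name cluster 9, and the intervals cover counting error over cells pooled from 4 libraries, so these shares are a description. Cluster 6, in which *NvsnailA*, a zinc finger factor of the mesoendoderm, was 8.95 times above other cells, served as that level. There 3 of 1017 cells (0.295%, 95% exact binomial interval 0.0609 to 0.860) showed *NvashA*, against 1.86% before thinning at its median of 23689 UMIs. Cluster 6 still held 2 marker-negative cells, with 13 and 6 *NvashA* UMIs (672 and 254 CPM). The neuron-like cluster reached 44.5% (40.5 to 48.6), cluster 13 reached 10.9% (6.59 to 16.7), cluster 11 reached 6.67% (4.69 to 9.15) and the progenitor-like cluster reached 3.13% (1.83 to 4.97). In cluster 11 *Nvncol1* and *Nvncol3*, the cnidocyte minicollagens, were 95.4 and 7.41 times above other cells.

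These 4 clusters held 60 of the 140 marker-negative cells (42.9%), with 44.0%, 46.7%, 38.9% and 42.7% in replicates 1 to 4. The other 80 cells lay in clusters where the share of cells with *NvashA* ran from 0% to 2.78%. Nothing is drawn from this division, and the comparisons that follow use all 140 cells.

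**Figure D3:**
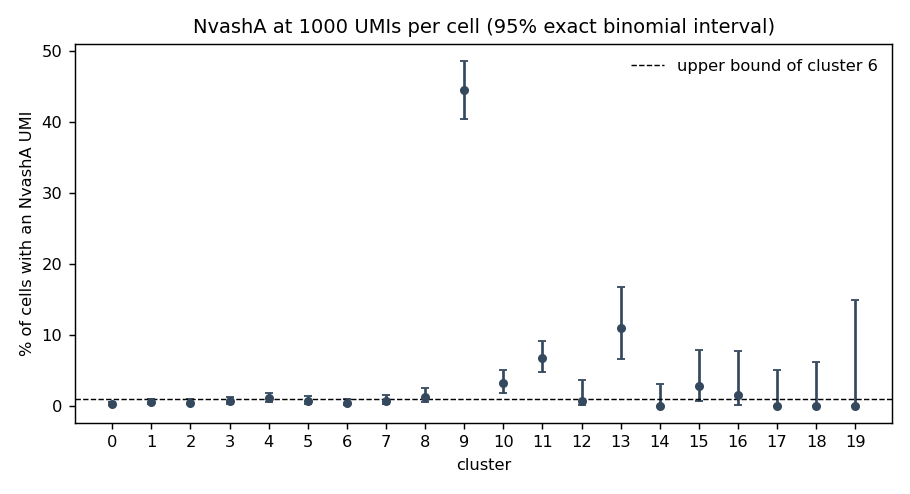
Points give the percentage of cells with at least 1 *NvashA* UMI in each cluster (x axis) after each cell was thinned to 1000 UMIs, and bars give 95% exact binomial intervals. The dashed line is the upper bound for cluster 6, 0.860%, and cluster 9 stands highest, at 44.5%.

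The tests used the summed UMIs of each class in each library, so that n was the number of libraries and not of cells. The sums of the marker-negative cells were small, at 84999, 71303, 81769 and 255110 UMIs, and the deepest cell gave 22.8%, 33.1% and 44.2% of them in replicates 1 to 3 and 4.72% in replicate 4. The deepest cells of replicates 1 and 2 both lay in cluster 6. The 5 genes of the rule were left out of the genes tested. The study's other listed markers are *Nvath-like*, *Nvmyc1* and *Nvnanos* of progenitors, *Nvwnt2* of the trunk ectoderm, *NvsnailA* of the mesoendoderm, *Nvmucin* of gland cells, and NV2g011441000.1, which the study lists both for the aboral and for the pharyngeal ectoderm.

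Against the *NvashA* cells with *NvLWamide*, 123 genes were higher and 329 lower in the marker-negative cells among 4032 tested, at an adjusted p of 0.05 (quasi-likelihood test of edgeR, Benjamini-Hochberg method). This was 11.2% of genes tested, 3.05% higher and 8.16% lower. With the library as a block the counts were 57 and 262. Leaving out replicate 1 gave 49 higher genes and leaving out replicate 2 gave 54. Without the deepest marker-negative cell of each library, 60 were higher and 250 lower. With each cell thinned to 1000 UMIs, 36 were higher and 90 lower among 623 genes tested.

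Of the 5 listed markers that could be tested in this comparison, 0 passed in edgeR, against the 11.2% called among all genes, and 0 had an unadjusted p under 0.05 or passed in DESeq2. *Nvmucin*, a secreted mucin of gland cells, stood at 106, 70.1, 110 and 23.5 CPM in the marker-negative cells of replicates 1 to 4 and at 2.06, 11.0, 21.8 and 51.7 CPM in the cells with *NvLWamide*. Replicates 1 to 3 were higher in the marker-negative cells and replicate 4 was lower, so that the classes overlapped, with a log2 fold change of 1.31 (SE 0.79, adjusted p = 0.33 from edgeR). Without replicate 4 the value was 2.98 and the adjusted p 0.0330, within a range of 0.0330 to 0.72 over the alternatives. *Nvnanos*, *Nvmyc1*, *Nvwnt2* and *Nvath-like* had log2 fold changes of 0.44, 0.94, -1.08 and -0.67, with adjusted p from 0.31 to 0.75 in edgeR. *Nvwnt2* passed without replicate 4, at -3.83 (adjusted p = 0.0319), and with no filter on low counts, at -1.40 (0.00262), within a range of 0.00262 to 0.80 over the alternatives. The *Nvnanos* fold turned to -0.52 without replicate 1. *NvsnailA* and NV2g011441000.1 did not pass the filter on low counts.

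The largest falls against the cells with *NvLWamide* were NV2g001442000.1 and NV2g009028000.1, neither of which has a name in the sources used here. NV2g001442000.1 had 0 UMIs in every library of the marker-negative cells and 46.3, 71.4, 35.2 and 64.5 CPM in the cells with *NvLWamide*. It was at least 8.92-fold lower, taking 3 UMIs over all marker-negative cells as the floor (adjusted p = 0.00421, edgeR). NV2g009028000.1 likewise had 0 UMIs in the marker-negative cells, against 50.5, 46.7, 36.9 and 34.2 CPM. It was at least 6.76-fold lower (adjusted p = 0.00414, edgeR). Both genes were detected in a minority of the cells with *NvLWamide*, 17.8% and 21.9% of them, and among clusters the first was highest in cluster 15 and the second in cluster 9.

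The largest rises in this comparison were NV2g008609000.1 and NV2g002926000.1, which have no name in the sources used here. NV2g008609000.1 stood at 2212, 98.2, 942 and 365 CPM in the marker-negative cells and at 11.3, 19.2, 109 and 27.9 CPM in the cells with *NvLWamide*. It was higher within each of the 4 libraries, which the selection of named genes required. Replicate 2 of the first class still lay below replicate 3 of the second. The gene had a log2 fold change of 4.27 (SE 0.87, adjusted p = 0.00855, edgeR). It was detected in 25 of the 140 marker-negative cells (17.9%), over 11 clusters, and in 10.9% of the cells with *NvLWamide*. Among the cells without *NvashA* it was detected in 13.9%. Pooled over libraries, it stood at 740 CPM in the marker-negative cells, 37.0 in the cells with *NvLWamide* and 212 in the cells without *NvashA*. Of its 365 UMIs in the marker-negative cells, 183 were in 1 cell of replicate 1. That cell lay in cluster 8, where the gland marker *Nvmucin* was 199 times above other cells and where NV2g008609000.1 was highest, at 10654 CPM.

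NV2g002926000.1 stood at 235, 154, 48.9 and 47.0 CPM in the marker-negative cells and at 11.3, 2.75, 11.7 and 15.9 CPM in the cells with *NvLWamide*. The classes did not overlap, with a log2 fold change of 3.01 (SE 0.56, adjusted p = 0.00529, edgeR). Of its 47 UMIs, 20 were in the deepest cell of replicate 1, which lay in cluster 6, and cluster 6 was where this gene was highest, at 288 CPM. Both genes passed under every alternative in which they could be tested, 13 for the first and 10 for the second, and without replicate 1 the folds were 3.00 and 2.43. Without the deepest cell of each library NV2g008609000.1 was at 4.23 (adjusted p = 0.0237, edgeR), while NV2g002926000.1 did not pass the filter on low counts. The part of cells of clusters 6 and 8 in the other rises was not tested.

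Against the 15139 cells without *NvashA*, 364 genes were higher and 416 lower in the marker-negative cells among 15333 tested, 5.09% of genes tested, 2.37% higher and 2.71% lower (adjusted p of 0.05 in edgeR, Benjamini-Hochberg method). DESeq2 split its calls differently, with 1087 higher and 384 lower. The median log2 fold change of all tested genes was -0.30 in edgeR's fit, so values below are read against that. Leaving out replicates 1, 2, 3 and 4 in turn left 216, 156, 194 and 212 higher genes and 86, 40, 70 and 358 lower genes. Of the calls made with all libraries, 186 remained without replicate 2. Without the 28 cells of the neuron-like cluster 146 genes were higher and 154 lower.

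Of the 7 listed markers tested here, 1 was called, *Nvnanos*, against 5.09% of all genes. *Nvnanos* encodes an RNA-binding repressor of translation known from germ line and progenitor cells. It stood at 153, 84.1, 36.7 and 3.92 CPM in the marker-negative cells and at 7.20, 7.65, 8.77 and 8.25 CPM in the cells without *NvashA*. Replicates 1 to 3 were above all of the latter and replicate 4 was below them, with a log2 fold change of 2.38 (SE 0.63, adjusted p = 0.0480, edgeR). Leaving out replicate 1, 2 or 3 ended the call, at adjusted p of 0.32, 0.19 and 0.12, and the fold was 1.40 without replicate 1, while over all alternatives the adjusted p ran from 0.000337 to 0.35.

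The *Nvnanos* signal was 23 UMIs in 9 of the 140 cells. Of these UMIs, 13 were in 4 cells of the progenitor-like cluster and 7 in 2 cells of the neuron-like cluster, and these are also the clusters in which *Nvnanos* was highest over all cells, at 115 and 53.8 CPM. In the cells with *NvLWamide*, *Nvnanos* stood at 35.0, 30.2, 15.1 and 54.1 CPM. Replicates 1 and 2, with the most *Nvnanos*, were also those with the larger shares of marker-negative cells in the progenitor-like cluster, and the part of that share in the difference was not tested. *Nvmyc1*, a Myc transcription factor, was found in 14 marker-negative cells, 7 of them in the progenitor-like cluster, with a log2 fold change of 0.68 (SE 0.36, adjusted p = 0.28, edgeR). *Nvath-like*, a basic helix-loop-helix factor of neural progenitors, had 11 UMIs in 5 cells, with a log2 fold change of -0.98 (SE 0.42, adjusted p = 0.19).

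*Nvwnt2*, a Wnt ligand of the trunk ectoderm, stood at 11.8, 0, 12.2 and 137 CPM in the marker-negative cells and at 167, 160, 161 and 188 CPM in the cells without *NvashA*. All libraries of the first class lay below all of the second, and replicate 4 stood far above the other 3. The share of all tested genes without overlap was not counted, so the lack of overlap is a description. The log2 fold change of *Nvwnt2* was -1.56 (SE 0.46, adjusted p = 0.0692, edgeR), which did not pass. With the library as a block it was -2.25 and passed, at an adjusted p of 1.11e-06, and without replicate 4 it was -4.64 and passed at 0.00112, in a range up to 0.19 over the alternatives. Of the 37 *Nvwnt2* UMIs in the marker-negative cells, 35 were in replicate 4.

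*NvsnailA* stood at 35.3, 56.1, 0 and 43.1 CPM in the marker-negative cells and at 58.5, 58.4, 61.1 and 64.0 CPM in the cells without *NvashA*. No library of the first class reached the second, which is again a description, with a log2 fold change of -1.002 (SE 0.34, adjusted p = 0.11, edgeR). *Nvmucin* and NV2g011441000.1 overlapped between the classes, with log2 fold changes of 0.79 (adjusted p = 0.23) and -0.57 (adjusted p = 0.44). *Nvmucin* passed in DESeq2, at 1.09 (adjusted p = 0.0333), and turned to -1.58 with cells thinned to 1000 UMIs and to -1.43 with cells of 1000 to 5000 UMIs, within a range of adjusted p from 0.0333 to 0.98. With cells of 1000 to 5000 UMIs *NvsnailA* and NV2g011441000.1 turned to 0.27 and 0.23. *Nvmucin* had a UMI in 8.57% of the marker-negative cells and 5.66% of the cells without *NvashA*, *NvsnailA* in 8.57% and 11.9%, and NV2g011441000.1 in 9.29% and 9.65%. The median depths were 2218 and 3580 UMIs, and these shares are not read as expression.

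**Figure D4:**
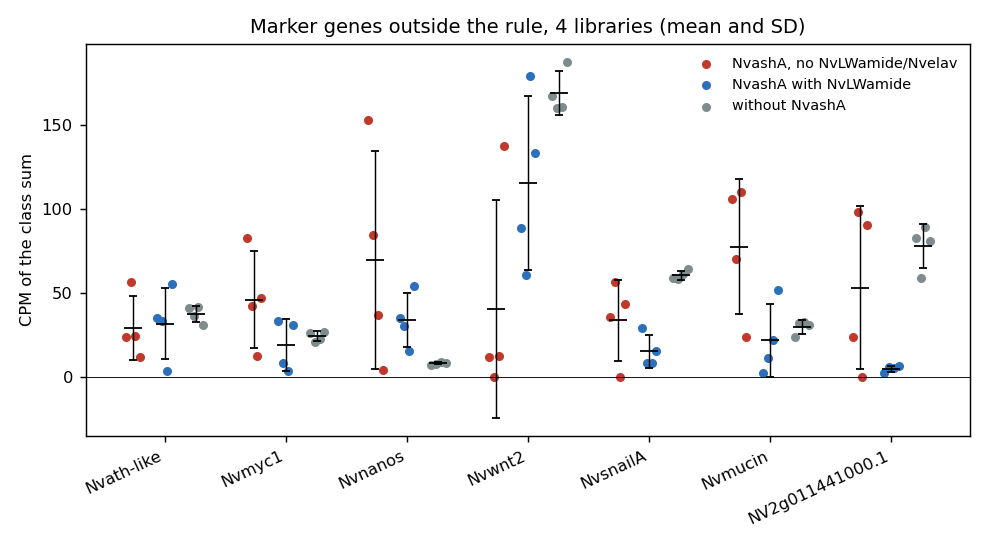
Points give the CPM (y axis) of 7 marker genes outside the rule in the summed UMIs of each of 3 cell classes, 1 point for each of the 4 libraries, with the mean as a dash and the SD over libraries as a bar. *Nvnanos* spreads from 3.92 to 153 CPM in the marker-negative *NvashA* cells and reaches at most 8.77 CPM in the cells without *NvashA*.

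The largest rises against the cells without *NvashA* were NV2g025746000.1 and NV2g025412000.1, which have no name in the sources used here. NV2g025746000.1 stood at 70.6, 393, 97.8 and 27.4 CPM in the marker-negative cells and at 0.379, 0.350, 0.701 and 1.11 CPM in the cells without *NvashA*. The classes did not overlap, with a log2 fold change of 7.18 (SE 0.76, adjusted p = 0.000164, edgeR). Its 49 UMIs lay in 10 cells, 30 of them in 3 progenitor-like cells and 8 in 3 neuron-like cells, and 1 progenitor-like cell of replicate 2 alone held 23. Among the cells with *NvLWamide* it was detected in 109 of 366. Pooled over libraries, it stood at 142 CPM there and at 99.4 CPM in the marker-negative cells.

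NV2g025412000.1 stood at 129, 98.2, 12.2 and 70.6 CPM in the marker-negative cells and at 0.733, 0.568, 0.601 and 0.770 CPM in the cells without *NvashA*. Again the classes did not overlap, with a log2 fold change of 6.50 (SE 0.46, adjusted p = 1.10e-05, edgeR). Its 37 UMIs lay in 12 cells, with 16 in 4 neuron-like cells and 14 in 3 progenitor-like cells. Both genes were highest over all cells in the neuron-like cluster, at 126 and 89.6 CPM. They passed under every alternative in which they could be tested, 14 for the first and 12 for the second.

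Of the genes that fell most against the cells without *NvashA*, NV2g000755000.1 had 0 UMIs in the marker-negative cells and 13.1, 12.4, 16.7 and 14.8 CPM in the cells without *NvashA*, at least 2.33-fold lower (adjusted p = 0.0372, edgeR). NV2g021931000.1 had 0 UMIs as well, against 12.6, 11.3, 12.2 and 12.7 CPM, at least 2.03-fold lower (adjusted p = 0.0324). Leaving out any library ended both calls, with adjusted p of 0.0814 to 0.13 for the first and 0.0848 to 0.11 for the second. Each fall is a bound set by the small number of UMIs in the marker-negative cells, and 21 of the 416 lower genes had 0 UMIs there.

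**Figure D5:**
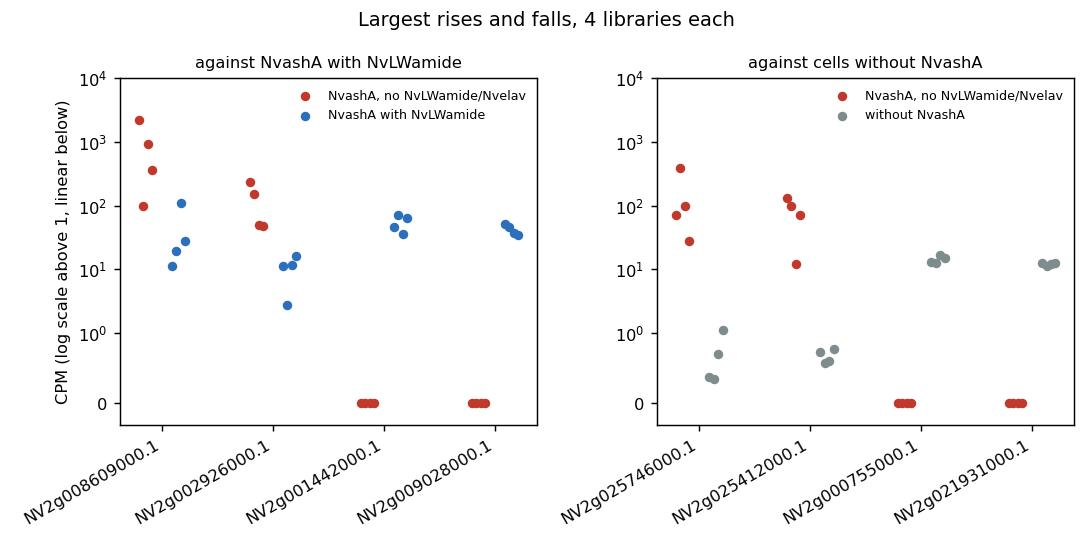
Points give the CPM (y axis, log scale above 1 and linear below) of the 2 genes that rose most and the 2 that fell most in each comparison, 1 point per library and class. All 4 of the falling genes are at 0 in each library of the marker-negative *NvashA* cells. The rising genes are higher in the marker-negative cells within every library, which their selection required.

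The share of cells with at least 1 UMI of each of the 7 markers was also compared after thinning every cell to 1000 UMIs, which left 126 of the 140 marker-negative cells. In 14 tests the lowest p was for *Nvwnt2* against the cells without *NvashA*. *Nvwnt2* was seen in 0%, 0%, 0% and 6.67% of the marker-negative cells of replicates 1 to 4 and in 14.4%, 14.3%, 13.4% and 14.8% of the cells without *NvashA*. The marker-negative cells were lower in all 4 libraries. An exact permutation test, two-sided, gave p = 0.0286, the lowest possible with 4 libraries against 4. After Benjamini-Hochberg adjustment over the 14 tests the p was 0.40, and no marker passed. Unthinned, 17.9% of the marker-negative cells and 30.4% of the cells without *NvashA* held *Nvwnt2*.

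The study lists 10 genes for mitochondrial proteins and removed cells with over 10% mitochondrial expression as low in quality. The UMIs of these 10 genes were summed here, and the sum is not read as RNA quality on its own. Together the 10 genes took 2.24%, 1.18%, 0.909% and 1.82% of the UMIs of the marker-negative cells in replicates 1 to 4. The cells with *NvLWamide* had 1.19%, 1.02%, 0.557% and 1.07%, and the cells without *NvashA* had 1.12%, 0.929%, 0.728% and 0.906%. Marker-negative cells were higher in each library, but the classes overlapped, with mean differences of 0.580 percentage points (two-sided exact permutation test, p = 0.23) and 0.620 percentage points (p = 0.0857). Of the 140 cells, 8 were over 10%, against 1 of the 366 cells with *NvLWamide* and 300 of the 15139 cells without *NvashA*. The sum was carried by NV2g025931000.1, a chain of the NADH-ubiquinone oxidoreductase, which gave 7668 of the 8144 mitochondrial UMIs of the marker-negative cells (94.2%). Its log2 fold change against the cells with *NvLWamide* was 0.57 (adjusted p = 0.29, edgeR), and 0.079 (0.89) with cells over 10% left out. Against the cells without *NvashA* it was 0.55 (SE 0.27, adjusted p = 0.25, edgeR), and it turned to -0.038 with thinning to 1000 UMIs. Over the 10 genes the median log2 fold change against these cells was -0.54, beside -0.30 over all genes tested.

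Of the 10 genes, 1 was called on its own against the cells without *NvashA*, and it was lower. Among all genes tested 5.09% were called and 2.71% were called lower, so this count is not read as a result about the 10 genes. The called gene was NV2g000053000.1, an assembly factor of the ATP synthase, with 6 UMIs in the marker-negative cells. Its log2 fold change was -1.83 (SE 0.39, adjusted p = 0.0197, edgeR). With the library as a block it no longer passed (adjusted p = 0.0796), nor without replicates 1, 2 or 4 (0.0778, 0.0884 and 0.11), and over all alternatives the adjusted p ran from 0.0169 to 0.13. NV2g024053000.1 was lower in 4 of 4 libraries at a log2 fold change of -0.58 and did not pass (adjusted p = 0.0560).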

How the data were processed

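For each of the 4 libraries the authors deposited unnormalized UMI counts of 24526 genes in each barcode, made with Cell Ranger. The submitters' processing notes name Cell Ranger 7.1.1 and Seurat 4, and the matrix headers name 6.1.2. No genome build is named in the sources used here, and no genome was used. The marker list of the study pairs IDs with names. *NvNgal*, a planned eighth gene for the shares of cells, was not analysed here because its listed ID was not matched. The available reference table matched 0 gene IDs.

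Counts were read with Python 3.11.15 and scipy 1.17.1. Barcodes needed 500 genes and, unlike in the study, no mitochondrial filter was set. Clusters used Seurat 5.3.0 in R 4.3.3 with 4000 variable genes by vst without the listed markers, 30 principal components and Louvain at a resolution of 0.5. Doublets were not removed, and the study's methods state no removal. Summed counts were tested with edgeR 4.0.16 (TMM, filterByExpr, quasi-likelihood, Benjamini-Hochberg adjustment at 0.05) and, as an alternative, DESeq2 1.42.0. CPM are counts scaled to all UMIs of the class. Standard errors were derived from the fold change and the F statistic. A floor of 3 counts over the class bounded folds against 0. The genes named were the study's listed markers, the 10 mitochondrial genes as a sum, and 2 rises and 2 falls per comparison past the threshold, moving the same way in 4 of 4 libraries with at least 20 UMIs. NV2g000053000.1, NV2g025931000.1 and NV2g024053000.1 were named after their values were seen.

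The 2 classes compared were sorted out of the same 4 libraries, so their sums are paired by library. Deviations of paired sums correlated at 0.22, 0.0456, -0.0242 and 0.0131 for the first comparison and at 0.13, 0.0501, 0.0363 and 0.14 for the second. Simulated data with 200 genes changed 4-fold were used as a check. For the first comparison edgeR recovered 76% of them over 4036 genes, with 8 false calls among 160. For the second it recovered 35% over 15338 genes, with 5 among 75. The simulated counts had the same set spread for every gene, not estimated from these data, and no single deep cells. These rates therefore do not give the error rate of the calls made here. The members and gene lists were chosen with earlier results of these data known. Alternatives were DESeq2, filters on counts, genes, mitochondrial share and depth, thinning, a library block, leaving out libraries, stricter classes and other cluster settings.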

Additional observations from a re-analysis of the deposited data

Results flagged for a closer look

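Among 50 groups of 4 library values looked at, 2 had a library far from the other 3 by Dixon's criterion, where chance gives about 1 in 20. *Nvwnt2* in the marker-negative *NvashA* cells was 137 CPM in replicate 4 and 0 to 12.2 CPM in the others. The share of cells without *NvashA* that lay in the neuron-like cluster was 2.80% in replicate 4 and 0.419% to 0.646% in the others.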

How the results depend on the processing

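Against the cells with *NvLWamide*, the 123 higher and 329 lower genes became 36 and 90 with cells thinned to 1000 UMIs, 20 and 82 with cells of 1000 to 5000 UMIs, 67 and 207 with at least 2 *NvashA* UMIs, 284 and 494 without the top 5% of UMIs, and 363 and 851 with no filter on low counts. The higher genes numbered 60 without the deepest marker-negative cell of each library, an alternative chosen after seeing the data, and 57 with the library as a block. Leaving out each library gave 49 to 96 higher and 226 to 268 lower genes.

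Against the cells without *NvashA*, the 364 higher and 416 lower genes became 184 and 157 with a minimum of 1000 genes, 75 and 205 with thinning to 1000 UMIs, 57 and 55 with cells of 1000 to 5000 UMIs, and 146 and 154 for cells outside the neuron-like cluster, also chosen after seeing the data. The higher genes were 194 with 2 *NvashA* UMIs and 1087 with DESeq2. The lower genes were 177 without the top 5% of UMIs and 260 without the deepest cells. Leaving out each library gave 156 to 216 higher and 40 to 358 lower genes. With 2000 variable genes 30.0% of the marker-negative cells were in neuron-like clusters in place of 20.0%.

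Single genes, shares and levels gave 440 values under alternatives. For genes the adjusted p set the side of the threshold, and for shares the exact permutation p before adjustment, which only *Nvwnt2* had passed. With a library left out that p cannot be below 0.1, and with pairs not below 0.125, so no share could pass there. Of the 440 values, 359 kept their direction and side of the threshold, 41 no longer passed, 15 newly passed and 25 changed sign. Of the 25, 0 had passed with all libraries. Of these, 8 were log2 folds. Against the cells without *NvashA*, thinning to 1000 UMIs gave *Nvmucin* -1.58 and NV2g025931000.1 -0.038, cells of 1000 to 5000 UMIs gave *NvsnailA* 0.27, *Nvmucin* -1.43, NV2g011441000.1 0.23 and NV2g025931000.1 -0.17, and 2 *NvashA* UMIs gave NV2g025931000.1 -0.056. Against the cells with *NvLWamide* the *Nvnanos* fold was -0.52 to 0.33 with a library left out. The other 17 were differences in the share of cells, in percentage points. Against the cells with *NvLWamide*, thinning to 500 UMIs gave *Nvath-like* 0.336 and *Nvmucin* 1.22, and no thinning gave *Nvnanos* -7.98 and *Nvmucin* 3.59. With a library left out *Nvmyc1* ran from -0.0647 to 4.59, *Nvnanos* from -2.25 to 2.04, *NvsnailA* from -0.457 to 0.862 and *Nvmucin* from -1.92 to 1.14. Against the cells without *NvashA*, no thinning gave *Nvmucin* 3.67 (two-sided exact permutation p = 0.0286 before adjustment), and leaving out a library gave *Nvmyc1* -0.135 to 4.45, *Nvmucin* -1.90 to 0.491 and NV2g011441000.1 -3.30 to 1.66.

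With the library as a block the *Nvwnt2* fold against cells without *NvashA* passed (-2.25, adjusted p = 1.11e-06), NV2g000053000.1 no longer passed (-1.77, adjusted p = 0.0796), and for the *Nvwnt2* share of cells the paired exact test gave 0.125, the smallest that 4 pairs allow. Among the other single values tested with the block no call changed. The mitochondrial differences were 0.42 to 0.72 and 0.45 to 0.77 percentage points with a library left out. The few UMIs of the marker-negative cells limit which genes could be tested. The cause of these changes was not tested.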
